A study of Mus musculus with 6 samples.

Results

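Perineuronal nets are lattices of hyaluronan, proteoglycans and glycoproteins that wrap the cell bodies of many fast-spiking parvalbumin neurons in the adult brain. Hyaluronan synthases spin the hyaluronan backbone at the cell surface. Lecticans, which are chondroitin sulfate proteoglycans, bind that backbone, link proteins lock them onto it, and tenascin-R ties the far ends of the lecticans together. Fibroblasts build a looser matrix on the same plan, in which versican and tenascin-C are typical components. The 10 genes described here were listed by symbol as parts of this matrix: the link proteins Hapln1, Hapln3 and Hapln4, the lecticans Acan, Bcan, Ncan and Vcan, the tenascins Tnr and Tnc, and the hyaluronan synthase Has2. All 10 were found among 22180 genes, each read from its single-symbol probe set with the highest mean.

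The study compared 6 groups of mouse cells, with 1 array each. They were sorted induced PV-GFP+ neurons taken at 14 dpi (sorted cells below), endogenous parvalbumin neurons (the array labelled endogenous PV, or the endogenous-labelled array), mouse embryonic fibroblasts (MEF), and iPV neurons at 3dpi, 7dpi and 14dpi (day 3, day 7 and day 14). Every group came from PV-GFP transgenic C57BL/6 mice, in which parvalbumin cells carry green fluorescent protein, and all 6 labels, that of the endogenous PV neurons included, give 13.5 day embryos. Growth in D10 medium and infection with adenovirus to induce neurons stand in the protocol text of every sample, MEF and endogenous PV included, so the labels do not separate infected from uninfected cells. The virus's cargo, the number of embryos and any pooling are not known from the sources used here. With 1 array per group there is no replicate error and no test, and each difference describes the 2 arrays compared.

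Values are log2 intensities, and an intensity of one gene's probe set cannot be set against another's. A floor was set at 5.01, the median over probe sets that are not controls, and lower values were raised to it before subtraction. A fold that involves a raised value can only be too small, and it is written "at least". A gene was counted as different at a log2 difference of 1 or more in size (2-fold). Members and gene lists were chosen with earlier results of these data known. Shares of all genes given beside their counts are therefore description and no test. As a yardstick of technical error, the spread between 2 probe sets of 1 gene was 0.27 to 0.50 log2 units over the 15 pairs of arrays. Only genes with both probe sets above the floor on both arrays entered it, so it was not measured for values under the floor. That spread is 1 standard deviation, so a gene that did not change can also exceed it. Error common to all probe sets of an array cancels in it. It leaves out variation between cultures and animals.

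The labels were set against marker lists first. Fibroblast markers were bright on every array, with a mean log2 level over 15 genes of 10.32 in sorted cells and 10.75 on the endogenous-labelled array, against 10.77 in MEF, 10.14 at day 3, 10.67 at day 7 and 10.48 at day 14. Markers of parvalbumin interneurons lay near the floor: the mean over 11 genes was between 5.17 and 5.32 on the 6 arrays, and Gad2, Kcnc1, Kcnc2 and Erbb4 were under the floor on all of them. Of the 11, 1 had a 2-fold range, Pvalb, which encodes parvalbumin itself, where 11.5% of all genes had such a range. Its level was 6.29 in sorted cells, 5.48 on the endogenous-labelled array and 5.23 in MEF. It was 5.76 at day 3, 6.15 at day 7 and 5.80 at day 14. Pvalb was thus higher in sorted cells than in MEF by 1.06 log2 units, a difference that was 0.75 after centring on housekeeping genes and 0 with a higher floor at the 75th percentile of probe sets. On the endogenous-labelled array none of the 11 differed from MEF by 2-fold. Its fibroblast markers went both ways against MEF, around a median difference of 0.04. Of 15, 3 were higher by 2-fold (Col3a1 by 1.21, Dcn by 1.08 and Lum by 1.08 log2 units). Another 2 were lower (Vim, close to the limit, and S100a4, with a log2 difference of -2.35). Among all genes 2.13% were higher and 0.969% lower on that array than in MEF. Pan-neuronal markers, 12 genes, had their highest mean, 6.50, in sorted cells, against 5.75 on the array labelled endogenous PV and 5.66 to 5.98 on the other 4 arrays. Macrophage markers ran from 5.37 at day 3 to 7.06 on the array labelled endogenous PV, with 5.40 in sorted cells and 6.65 in MEF. These are bulk samples, so fewer cells of a type and less RNA per cell cannot be told apart.

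**Figure D1:**
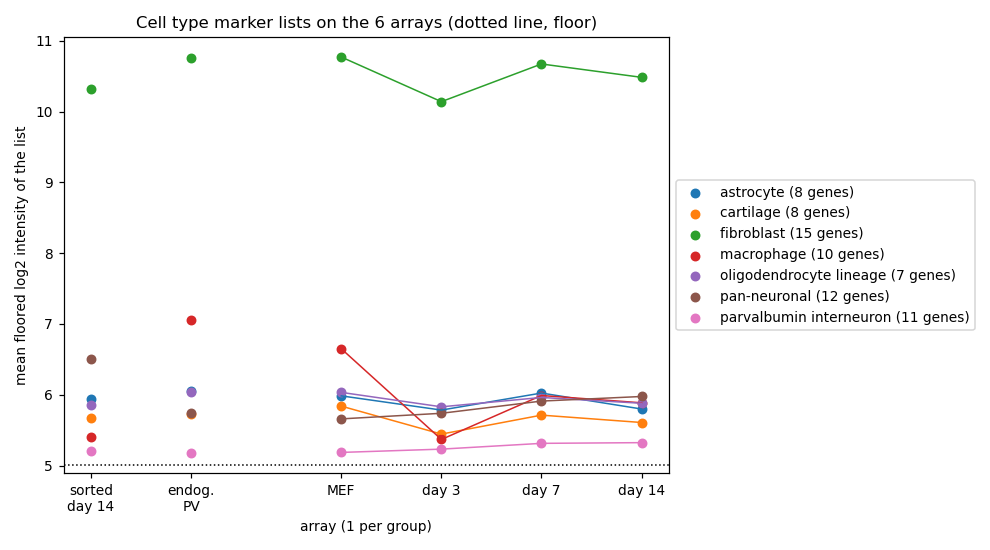
Mean floored log2 intensity of 7 marker lists (y axis) on the 6 arrays (x axis), 1 point per list and array, with lines joining MEF and days 3, 7 and 14. Fibroblast markers lie above 10 on every array, and parvalbumin interneuron markers lie between 5.17 and 5.32.

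Of the 10 matrix genes, 3 were above the floor on all 6 arrays (Vcan, Tnc and Has2), 4 on some (Hapln3, Hapln4, Ncan and Tnr) and 3 on none (Hapln1, Acan and Bcan). Among all genes, 49.6% were above the floor on all 6 arrays and 64.5% on at least 1. A range of 2-fold or more over the 6 arrays was found for 5 members, namely Tnr, Vcan, Hapln4, Tnc and Has2, while 11.5% of all genes had such a range. Aggrecan, brevican and Hapln1 lay under the floor throughout, while versican and tenascin-C stayed far above it on every array.

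**Figure D2:**
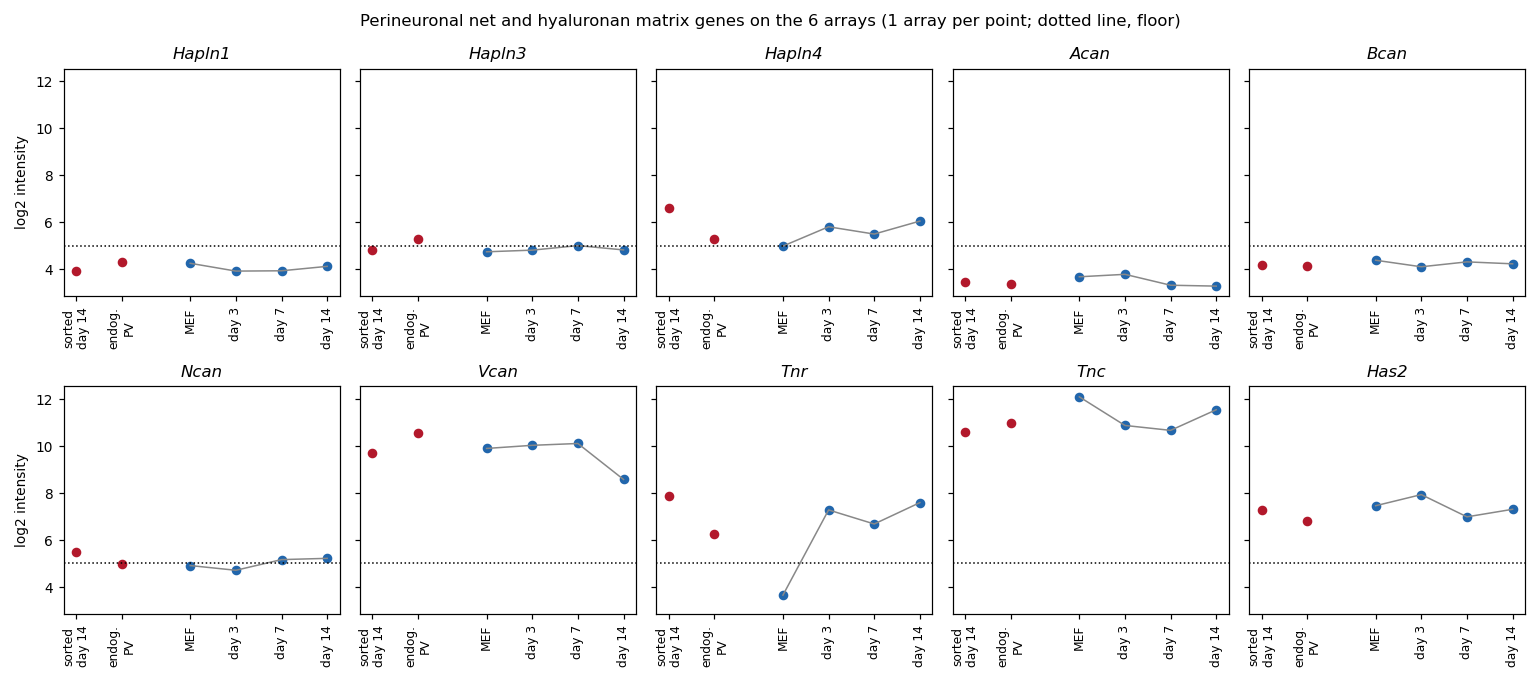
Log2 intensity of the 10 members (y axis) on the 6 arrays (x axis), 1 point per array, with the sorted and endogenous-labelled arrays in red and MEF and days 3, 7 and 14 in blue joined by a line. The dotted line is the floor of 5.01. Tnr lies under it in MEF and between 6.28 and 7.90 on the other 5 arrays.

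Differences of 2-fold or more were found for 4 members, in 16 of 90 combinations of a member with a comparison. Among all genes the share that differed ran from 1.43% to 5.31% by comparison. The 9 comparisons reuse the 6 arrays, so 1 value can enter several of the 16 differences. In sorted cells against MEF, 3 of 10 members differed (Tnr and Hapln4 higher, Tnc lower), where 5.31% of all genes did, 3.67% higher and 1.64% lower. Of all genes that differed there, 69.1% were higher in sorted cells, a share that was 57.7% after quantile normalization and 35.6% after centring on housekeeping genes. Against the array labelled endogenous PV, sorted cells differed in 2 members (Tnr and Hapln4 higher), where 2.5% of all genes did. Against unsorted day 14 cells they differed in 1 (Vcan higher), where 1.87% of all genes did. The array labelled endogenous PV differed from MEF in 2 members (Tnr higher, Tnc lower), with 3.1% for all genes.

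Along the course of induction, the same 2 members, Tnr and Tnc, differed from MEF at day 3, where 3.07% of all genes did, and at day 7, where 2.54% did. At day 14, 3 members differed from MEF (Tnr and Hapln4 higher, Vcan lower), with 3.36% for all genes. Between days 3 and 7 no member differed by 2-fold, with 1.83% for all genes, and between days 7 and 14 only Vcan did, lower at day 14, with 1.43% for all genes. The median difference over the 10 members was 0 in 8 of the 9 comparisons and 0.03 for day 14 against day 7, where the median over all genes was 0 in each. The 16 differences were thus spread over Tnr (6), Tnc (4), Hapln4 (3) and Vcan (3), and the other 6 members had none.

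**Figure D3:**
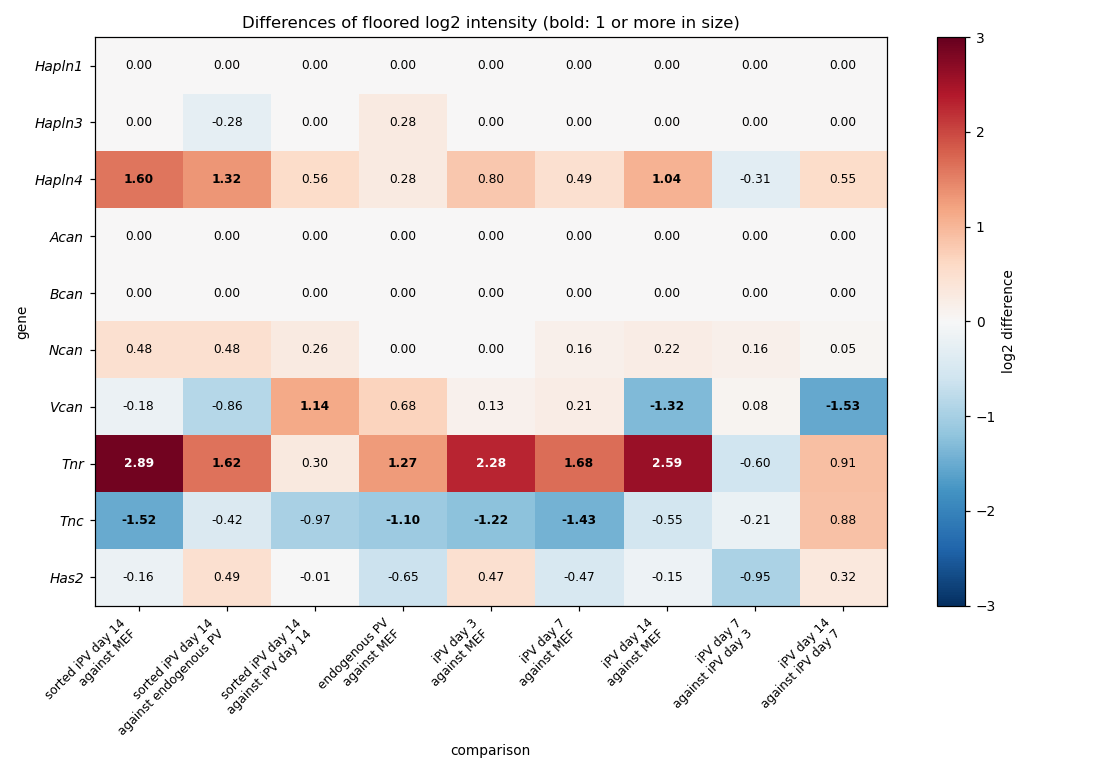
Differences of floored log2 intensity for the 10 members (rows) in the 9 comparisons (columns), named group minus the group after "against", with 1 or more in size in bold. The row of Tnr holds the largest value, 2.89 in sorted cells against MEF, and the row of Tnc is negative in every comparison with MEF.

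Tenascin-R was the member that varied most. Tnr, an extracellular glycoprotein that cross-links lecticans in nets and is known in the brain from oligodendrocytes and some interneurons, had a log2 intensity of 7.90 in sorted cells, 6.28 on the endogenous-labelled array, and 3.66 in MEF, 7.29 at day 3, 6.69 at day 7 and 7.60 at day 14. MEF was thus the 1 array under the floor, and the other 5 lay well above it. A range as large as that of Tnr, 2.89 log2 units over floored values, was found for 105 of the 22180 genes, Tnr included.

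Against MEF, Tnr was at least 4.85-fold higher at day 3, at least 3.20-fold higher at day 7 and at least 6.02-fold higher at day 14. It was at least 7.41-fold higher in sorted cells than in MEF, and at least 2.41-fold higher on the array labelled endogenous PV than in MEF. These 5 comparisons share the MEF array, so 1 low value there enters all of them. At day 3, 46 of 22180 genes, Tnr included, were at least as far above MEF as Tnr, and in sorted cells 47 were. Sorted cells had 3.08-fold more Tnr signal than the array labelled endogenous PV, and neither value of this pair was raised to the floor. With the floor at the 75th percentile of probe sets (6.58), the Tnr differences from MEF were smaller by construction, at 0.70 for day 3, 0.11 for day 7 and 0 for the array labelled endogenous PV.

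In the order of Tnr levels, sorted cells, day 14 and day 3 followed each other by gaps of 0.30 and 0.31 log2 units, within the technical spread of 0.33 and 0.38 for those pairs. The further steps down to day 7 (0.60), to the array labelled endogenous PV (0.41) and to MEF (at least 1.27) were larger than that spread. Oligodendrocyte-lineage markers other than Pdgfra lay near or under the floor. Olig2 was under it on all 6 arrays, Sox10 had at most 5.26 and Mbp, a myelin protein, at most 5.45. Over the 7 markers of that lineage the mean was 5.85 in sorted cells and 6.04 on the endogenous-labelled array, against 6.03 in MEF. Pdgfra, which fibroblasts also express, lay between 10.24 and 11.57 and raised that mean. It was the 1 of the 7 with a 2-fold range, where 11.5% of all genes had one. Pan-neuronal markers differed among themselves in their order over the arrays. Snap25, a protein of synaptic vesicle fusion, had 8.05 in sorted cells, 6.53 on the endogenous-labelled array, and 4.44 in MEF, 6.00 at day 3, 6.44 at day 7 and 6.90 at day 14. It was lowest in MEF, as Tnr was. Map2, which stabilises dendritic microtubules, had 7.19 in sorted cells, 6.58 on the endogenous-labelled array, and 7.20 in MEF, 6.23 at day 3, 6.38 at day 7 and 6.07 at day 14, so that MEF was its highest array. Of 12 pan-neuronal markers 7 had a 2-fold range, Snap25 and Map2 among them, where 11.5% of all genes had one. Dcx and Elavl4 were under the floor on all 6 arrays. In sorted cells against MEF 6 of the 12 were 2-fold higher and 0 lower, where 3.67% of all genes were higher and 1.64% lower. At day 14 against MEF 1 was higher and 1 lower, where the shares of all genes were 2.1% and 1.26%. The part of oligodendrocyte-lineage and pan-neuronal markers in the Tnr result was not tested.

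Tenascin-C had its highest level where tenascin-R had its lowest. Tnc, a glycoprotein of embryonic, healing and fibroblast-rich tissue, had 10.59 in sorted cells, 11.01 on the endogenous-labelled array, and 12.11 in MEF, 10.89 at day 3, 10.68 at day 7 and 11.56 at day 14. MEF had the highest level and sorted cells the lowest. The steps from MEF to day 14 and from day 14 to the array labelled endogenous PV, 0.55 each, were above the technical spread, and those further down to day 3, day 7 and sorted cells were within it. Fibroblast markers moved with Tnc in some comparisons with MEF and not in others. In sorted cells against MEF 3 of 15 were 2-fold lower and 0 higher, where 1.64% of all genes were lower and 3.67% higher. At day 3, 5 were lower and 0 higher (all genes 1.64% and 1.43%). At day 7, 2 were lower and 1 higher (all genes 0.843% and 1.7%). On the endogenous-labelled array 2 were lower and 3 higher (all genes 0.969% and 2.13%). The part of these markers in the Tnc result was not tested. Tnc was 2.86-fold lower in sorted cells and 2.14-fold lower on the array labelled endogenous PV than in MEF. It was 2.33-fold lower at day 3 and 2.69-fold lower at day 7 than in MEF, while at day 14 the log2 difference from MEF was -0.55. That day 14 difference was -1.03 after centring the arrays on housekeeping genes. Day 14 was above day 7 by 0.88, and sorted cells differed from unsorted day 14 cells by -0.97, both short of 2-fold and both larger than the technical spread of 0.27 and 0.33.

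The promoters of the tenascin genes are shown because the levels of the 2 genes differed from MEF in opposite directions. In the sequences below, from RefSeq on build GRCm38.p6, 250 bases before and 50 after an annotated start are written 5′ to 3′ on the gene's strand, with matches to 5 short motifs in capitals. The Tnr window is chr1:159523519-159523818 on the plus strand, and the Tnc window, at the outermost of 2 annotated starts, is chr4:64046966-64047265 on the minus strand.
Tnr: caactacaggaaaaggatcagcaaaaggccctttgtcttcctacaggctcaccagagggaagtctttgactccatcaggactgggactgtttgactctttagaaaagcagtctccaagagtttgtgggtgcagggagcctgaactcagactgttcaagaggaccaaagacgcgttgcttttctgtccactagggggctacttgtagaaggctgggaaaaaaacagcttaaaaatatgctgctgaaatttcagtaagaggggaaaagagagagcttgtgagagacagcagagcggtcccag
Tnc: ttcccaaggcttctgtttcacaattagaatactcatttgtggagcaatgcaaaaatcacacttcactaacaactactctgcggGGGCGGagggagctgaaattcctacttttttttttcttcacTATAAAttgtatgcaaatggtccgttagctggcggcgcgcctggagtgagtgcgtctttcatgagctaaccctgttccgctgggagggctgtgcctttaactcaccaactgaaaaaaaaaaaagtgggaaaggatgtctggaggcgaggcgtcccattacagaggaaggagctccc
The motifs, searched on both strands, were the TATA box as TATAAA, the CAAT box as CCAAT, an E-box spelled CAGCTG, the AP-1 site spelled TGANTCA and the GC box spelled GGGCGG. Among 32851 windows of the same length, 13.6% held the TATA box, 37.4% the CAAT box, 16.3% the E-box, 7.81% the AP-1 site and 35.7% the GC box. The Tnc window held the letters TATAAA at position -126 and GGGCGG at position -167 from the start, with no overlap. From the other annotated Tnc start, the same matches lay at -205 and -246. The Tnr window held none of the 5 motifs. Their G and C content was 48% for Tnr and 47.3% for Tnc, where the median of all windows was 52.7%. A match is a run of letters and no measure of binding. Names such as TATA box stand here only for the spelled letters, and other spellings were not searched.

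From the list of net partners, Tnn, which encodes tenascin-W, and Cntn1, a cell-adhesion protein of axons that binds tenascin-R, varied in the same 2 directions. Tnn had 4.89 in sorted cells, 5.58 on the endogenous-labelled array, and 8.79 in MEF, 5.55 at day 3, 5.37 at day 7 and 4.79 at day 14. It was at least 13.7-fold lower in sorted cells, and 9.24-fold lower on the array labelled endogenous PV, than in MEF. Cntn1 had 8.55 in sorted cells, 7.30 on the endogenous-labelled array, and 5.40 in MEF, 7.40 at day 3, 8.03 at day 7 and 6.83 at day 14. It was 8.87-fold higher in sorted cells than in MEF and 3.29-fold higher than in unsorted day 14 cells. MEF was the low array for Tnr and Cntn1 and the high array for Tnc and Tnn, as the plot of tenascin genes shows.

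**Figure D4:**
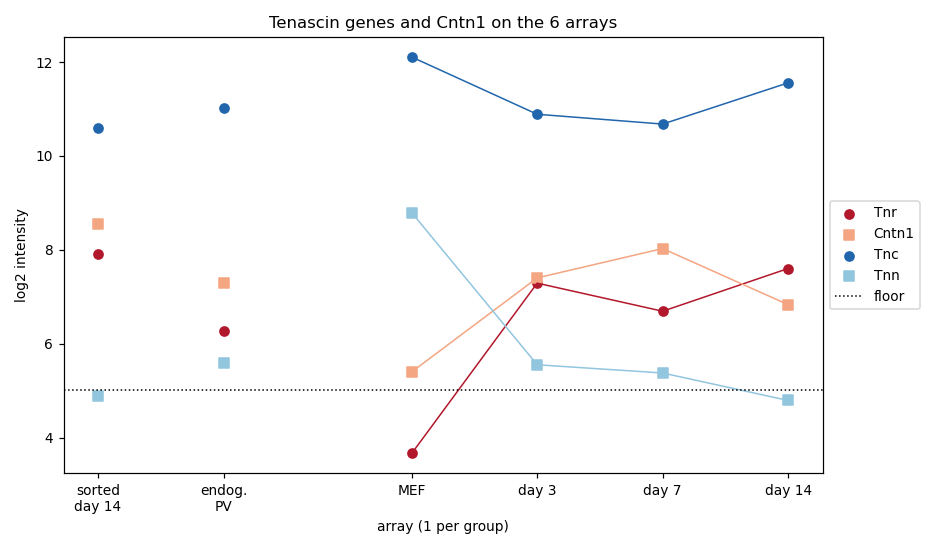
Log2 intensity (y axis) of Tnr, Tnc, Tnn and Cntn1 on the 6 arrays (x axis), 1 point per gene and array, with lines joining MEF and days 3, 7 and 14 and a dotted line at the floor. Tnr and Cntn1 have their lowest points in MEF, 3.66 and 5.40, and Tnc and Tnn have their highest there, 12.11 and 8.79.

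Among the link proteins, Hapln4 was the 1 member with a 2-fold range. Hapln4, also called Bral2, is a link protein of nets and of the matrix at nodes and synapses of the hindbrain. It had 6.61 in sorted cells, 5.29 on the endogenous-labelled array, and 4.99 in MEF, 5.81 at day 3, 5.50 at day 7 and 6.05 at day 14. Sorted cells were the highest array and MEF, just under the floor, the lowest. Hapln4 was at least 3.03-fold higher in sorted cells than in MEF, and 2.50-fold higher than on the array labelled endogenous PV. The pan-neuronal marker mean was likewise highest in sorted cells, 6.50 there against 5.66 in MEF, and its part in the Hapln4 result was not tested. The Hapln4 level in sorted cells exceeded the unsorted day 14 level by 0.56 log2 units, above the technical spread of 0.33, and all later steps in the order of its levels were within the spread. The day 14 difference from MEF, at least 2.06-fold, passed the 2-fold limit narrowly, and it was 0.59 on the log2 scale after housekeeping centring. With the floor at the 75th percentile, no Hapln4 difference reached 2-fold, since 5 of its 6 values then lay under the floor.

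Hapln1, the cartilage link protein that also stabilises nets in the brain, ran from 3.91 in sorted cells to 4.30 on the endogenous-labelled array, under the floor on all 6 arrays. Hapln3, a link protein made outside the brain as well, lay between 4.74 in MEF and 5.29 on the array labelled endogenous PV, the 1 array above the floor for it. Its floored difference there was 0.28, within the technical spread for the pair. Neither gene gave a difference above the technical spread in any of the 9 comparisons.

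Of the lecticans, versican was bright on every array. Vcan, the lectican of fibroblasts and embryonic tissue, had 9.73 in sorted cells, 10.59 on the endogenous-labelled array, and 9.91 in MEF, 10.04 at day 3, 10.12 at day 7 and 8.59 at day 14. The unsorted day 14 array stood apart from the other 5, which lay within 0.86 log2 units of each other. Vcan was 2.89-fold lower at day 14 than at day 7, and 2.50-fold lower at day 14 than in MEF. In sorted cells, taken at the same day, it was 2.21-fold higher than in the unsorted cells. All 3 of these differences rest on the 1 unsorted day 14 array, and without it no Vcan difference among the comparisons reached 2-fold. At day 14 against day 7, 56 of 22180 genes were at least as far below as Vcan. The fibroblast marker mean was 10.48 on that array, between its lowest value of 10.14 at day 3 and its highest of 10.77 in MEF. Of that list, Pdgfra (10.24) and Postn (12.34, with a range of only 0.18) had their lowest values at day 14. The other markers of the list had theirs on other arrays, and Twist1 had its highest value, 7.72, at day 14. The part of fibroblast markers in the Vcan result was not tested. Ptn, a heparin-binding growth factor that also binds chondroitin sulfate, had its lowest level on the same array, with 6.59 at day 14, against 9.12 at day 7, and was 2.93-fold higher in sorted cells than there.

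The Vcan promoter window is shown because Vcan is the 1 lectican above the floor on all 6 arrays. It is chr13:89742463-89742762 on the minus strand of GRCm38.p6, from RefSeq, with matches to the motifs named above in capitals.
Vcan: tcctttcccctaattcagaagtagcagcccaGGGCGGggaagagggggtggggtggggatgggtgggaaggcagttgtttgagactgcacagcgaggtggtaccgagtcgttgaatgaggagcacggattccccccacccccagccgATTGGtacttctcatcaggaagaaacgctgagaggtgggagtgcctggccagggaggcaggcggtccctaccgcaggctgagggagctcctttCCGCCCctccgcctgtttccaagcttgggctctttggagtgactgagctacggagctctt
It held the CAAT box, on the other strand, at position -103 and the GC box at positions -219 and -10, the last on the other strand, with no overlap. Its G and C content was 61%. Windows were matched for 8 of the 10 members, all but Hapln4 and Has2.

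The lecticans of mature nets were near or under the floor. Aggrecan, the proteoglycan most used to mark nets around parvalbumin neurons, is encoded by Acan, which lay between 3.28 at day 14 and 3.78 at day 3. Bcan, brevican, a net and synapse lectican made by neurons and astrocytes, lay between 4.11 at day 3 and 4.38 in MEF. Both genes were under the floor on all 6 arrays, so no difference could be measured for them, and values under the floor do not show that a gene is absent. Ncan, neurocan, the lectican of the developing brain, had 5.49 in sorted cells, 4.99 on the endogenous-labelled array, and 4.92 in MEF, 4.72 at day 3, 5.17 at day 7 and 5.23 at day 14. Its largest floored difference was 0.48, in sorted cells over MEF and equally over the endogenous-labelled array. That was within the technical spread for the pair with MEF (0.50) and above it for the other pair (0.32), and each step in the order of its levels was within it. A second Ncan probe set lay between 4.28 at day 3 and 4.84 in MEF and was under the floor on all arrays. Its value in sorted cells was 4.52.

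The lectican and link protein genes lie in neighbouring pairs in the mouse genome. In the RefSeq annotation of GRCm38.p6, used here only for gene order, 0 protein-coding genes lay between Hapln1 and Vcan on chromosome 13, between Hapln3 and Acan on chromosome 7, and between Hapln4 and Ncan on chromosome 8. The same held for Bcan and Hapln2, a link protein of nodes of Ranvier, on chromosome 3. Hapln1 was under the floor and Vcan above it on all 6 arrays. Hapln4 and Ncan both had their highest value in sorted cells, 6.61 and 5.49, and the Ncan difference from MEF was under 2-fold. Each step in the order of Ncan levels was within the technical spread. The second Ncan probe set, under the floor on all arrays, was highest in MEF, with 4.84 there and 4.52 in sorted cells. In the pair of Hapln2 and Bcan both genes were under the floor on all arrays, with Hapln2 between 4.36 and 4.64.

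Has2, the main hyaluronan synthase of fibroblasts, had 7.30 in sorted cells, 6.82 on the endogenous-labelled array, and 7.47 in MEF, 7.94 at day 3, 7.00 at day 7 and 7.32 at day 14. Day 3 was its highest array and the array labelled endogenous PV its lowest, and the range was 1.12. No comparison reached 2-fold, and the closest was day 7 against day 3 with a log2 difference of -0.95, which 152 of 22180 genes reached in that direction. From the highest level, the step from day 3 to MEF (0.47) was above the technical spread, and every later step was within it. A further probe set carries the symbols of both Has2 and its antisense RNA and was not used.

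Other genes of hyaluronan handling were taken from a list of 28, of which 26 were measured and 7 were under the floor on all arrays. In sorted cells against MEF, 4 of the 26 were 2-fold lower and 0 higher, where 3.67% of all genes were higher and 1.64% lower, and the median difference was 0, as it was over all genes. Cemip, which drives hyaluronan breakdown, had 5.98 in sorted cells, 8.53 on the endogenous-labelled array, and 8.44 in MEF, 5.63 at day 3, 6.90 at day 7 and 7.92 at day 14. It was thus low at day 3 and in sorted cells, by 7.00-fold and 5.52-fold against MEF. Cd44, the main hyaluronan receptor, was 2.30-fold lower in sorted cells and 2.76-fold lower on the array labelled endogenous PV than in MEF. Hmmr, a hyaluronan-binding protein of the mitotic spindle, was 2.91-fold lower in sorted cells and at least 3.81-fold lower at day 3 than in MEF, and both log2 differences were -0.36 with the higher floor. Ptx3, which with Tnfaip6 cross-links hyaluronan in inflamed or ovulating tissue, was 2.63-fold lower in sorted cells than in MEF and 2.05-fold higher on the array labelled endogenous PV than in MEF. The second Ptx3 difference, 1.04 on the log2 scale, was 0.93 after quantile normalization and 0.77 after housekeeping centring. Itih5, of the family of inter-alpha-trypsin inhibitor heavy chains, was 4.02-fold higher on the array labelled endogenous PV than in MEF. Tnfaip6 lay between 5.02 at day 3 and 6.46 at day 7. The other synthases were near the floor, with Has1 between 4.46 and 5.02 and Has3 between 4.52 and 5.06.

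The enzymes that build and sulfate the chondroitin chains of lecticans were measured for 20 of 22 listed genes, and 18 were above the floor on all 6 arrays. In sorted cells against MEF, 1 was 2-fold higher and 1 lower, where 3.67% of all genes were higher and 1.64% lower. The median difference was 0.03, which turned to -0.08 after quantile normalization and to -0.25 after housekeeping centring. Chst11, a sulfotransferase of the 4-position of chondroitin, was 2.90-fold higher in sorted cells than in MEF and 2.13-fold higher at day 3, a log2 difference of 1.09 that was 0.80 after housekeeping centring. Csgalnact1, which starts the chondroitin chain, was 2.65-fold lower in sorted cells and 3.84-fold lower at day 3 than in MEF, and 3.11-fold lower in sorted cells than on the array labelled endogenous PV. Chst13, a further 4-sulfotransferase, was 2.24-fold lower at day 3 than in MEF, where both values lay under the higher floor. Chsy3, a chondroitin synthase, ran from 5.73 in sorted cells up to 7.19 at day 7, and Chst14 and B3galt6 had ranges of 0.79 and 0.78.

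Proteases that cut lecticans, and their inhibitors, had a 2-fold range over the 6 arrays in 12 of 18 measured genes, where 11.5% of all genes had one. That list, like the others, was chosen with earlier results of these data known. In sorted cells against MEF, 3 were 2-fold higher and 4 lower, where 3.67% of all genes were higher and 1.64% lower, and the median difference was 0. Adamts4, an aggrecanase, had 8.58 in sorted cells, 6.92 on the endogenous-labelled array, and 6.91 in MEF, 7.55 at day 3, 6.62 at day 7 and 7.33 at day 14, so that sorted cells were 3.18-fold above MEF. Adamts15, which also cuts versican and aggrecan, was 3.53-fold higher in sorted cells, 5.03-fold higher on the array labelled endogenous PV and 5.38-fold higher at day 7 than in MEF, and its log2 difference in sorted cells, 1.82, was 0.72 with the higher floor. Mmp9, a gelatinase that cuts net components, was 4.88-fold higher in sorted cells and 6.38-fold higher on the array labelled endogenous PV than in MEF. Mmp13, a collagenase, was 20.1-fold lower in sorted cells and 13.6-fold lower on the array labelled endogenous PV than in MEF. Mmp3, a stromelysin, was 22.1-fold lower in sorted cells than in MEF and 9.86-fold lower than in unsorted day 14 cells. Timp1, an inhibitor of metalloproteinases, was 2.56-fold lower in sorted cells than on the array labelled endogenous PV. Macrophages also make Mmp9. Of the 10 macrophage markers, 7 had a 2-fold range, where 11.5% of all genes had one. In sorted cells against MEF 5 were lower and 0 higher, where 1.64% of all genes were lower and 3.67% higher. On the endogenous-labelled array against MEF 0 were lower and 2 higher, where 0.969% of all genes were lower and 2.13% higher. Ptprc and Aif1 were under the floor on all 6 arrays. Lyz2, a lysozyme of that list, had 6.03 in sorted cells and 10.05 on the endogenous-labelled array, against 9.78 in MEF. Their part in the protease levels was not tested.

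The list of net partners and chondroitin sulfate receptors held 33 genes, of which 30 were measured and 4 were under the floor on all arrays, among them Otx2, a homeoprotein that nets capture. In sorted cells against MEF, 2 were 2-fold higher (Cntn1 and Ptprs) and 3 lower (Ptn, Tnn and Fbln2), where 3.67% of all genes were higher and 1.64% lower. The median difference was 0.07, and 0 after housekeeping centring. Ptprs, a phosphatase receptor for chondroitin sulfate, had 9.57 in sorted cells and 8.90 on the endogenous-labelled array, against 8.15 in MEF. Ptprz1, a phosphatase that is itself a chondroitin sulfate proteoglycan and anchors tenascin-R, was 2.73-fold lower in sorted than in unsorted day 14 cells, with 6.63 in sorted cells. Fbln2, a fibulin that binds versican and aggrecan, was 2.55-fold lower in sorted cells than in MEF. Mdk, midkine, a relative of Ptn, was 2.69-fold higher at day 7 than in MEF, a log2 difference of 1.43 that was 0.91 with the higher floor.

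**Figure D5:**
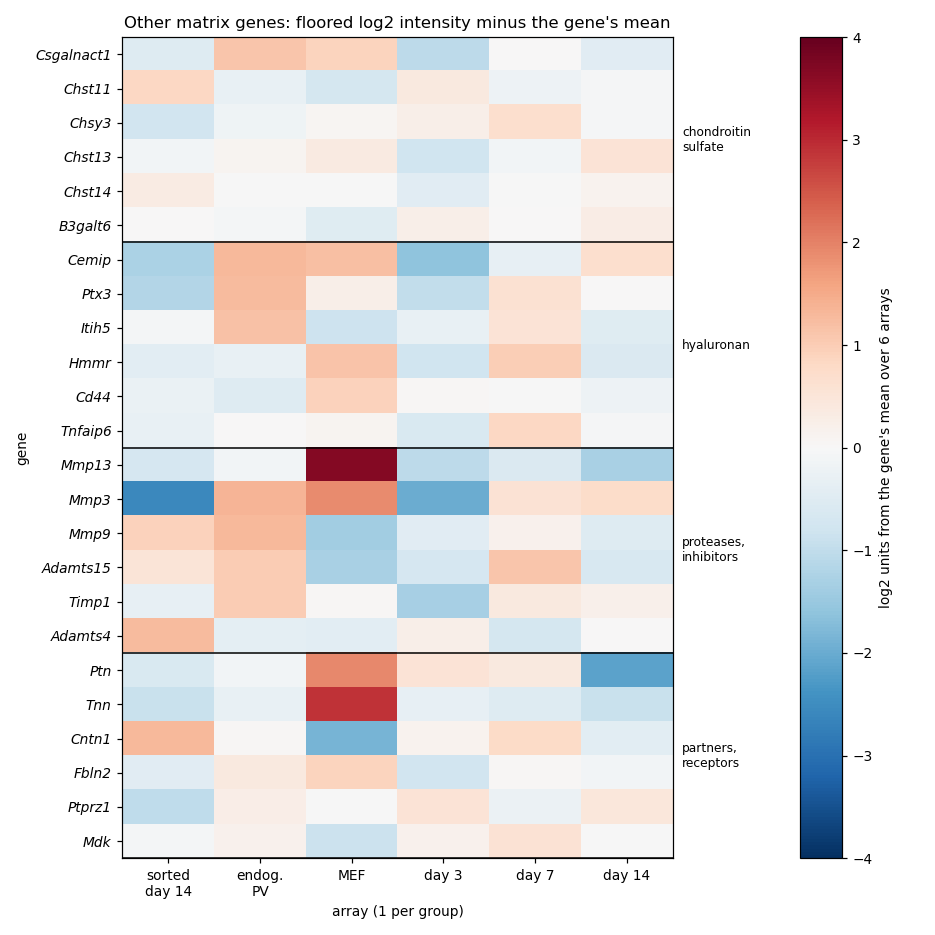
Floored log2 intensity minus the gene's mean over the 6 arrays (colour) for the 24 genes of 4 lists with the largest ranges (rows, 6 from each list) on the 6 arrays (columns). MEF is the high column for Mmp13, Tnn and Ptn and the low column for Cntn1, which has 8.55 in sorted cells against 5.40 in MEF.

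Genes whose pattern over the 6 arrays was most like that of the 3 most variable members were ranked by the root mean square difference between floored profiles, each centred on its own mean, among 13314 named genes. For Tnr the nearest were Frzb (0.22 log2 units), a secreted Wnt antagonist, Pkia (0.25), an inhibitor of protein kinase A, Id3 (0.25), Dner (0.27) and Egln3 (0.28), and 74 genes lay within 0.5. Dner, a Notch-related surface protein of neurons, had 8.65 in sorted cells, 7.29 on the endogenous-labelled array, and 5.13 in MEF, 7.99 at day 3, 7.47 at day 7 and 8.24 at day 14. For Vcan the nearest were Carmn (0.19), Hgf (0.20), Plagl1 (0.23), Mir341 (0.25) and Lce3c (0.26), and 392 genes lay within 0.5. Each of these 5, like Vcan, had its lowest value at day 14, which their selection by profile on the same arrays favours. For Hapln4 the nearest were Ttll7 (0.10), B3gnt3 (0.11), Reep6 (0.13), Fitm2 (0.13) and Nefm (0.13), a neurofilament subunit, but 4865 genes lay within 0.5, a far larger number than for Tnr or Vcan. With 6 points per profile, likeness is a description of these arrays.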

How the data were processed

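Log2 intensities of 41345 probe sets on 6 arrays, 1 per group, were used as deposited by the authors. The submitters' processing notes name Affymetrix Expression Console. Its version and algorithm are not known from the sources used here, nor is the genome build. That the deposited scale is log2 follows from the range of values. Labelling started from 6 µg of total RNA, per the labels' protocols. Probe sets numbered below the first annotated one (5333) were treated as controls and left out. Genes were named by the platform annotation; 23521 probe sets had 1 symbol and 1814 several, and the Entrez identifiers of all 10 members matched RefSeq. Each of 22180 genes was read from its probe set with the highest mean, and differences were taken after raising values under the floor of 5.01. For technical spread, the log2 difference between 2 arrays was taken for each of a gene's 2 brightest probe sets. The standard deviation of the discrepancy within genes was scaled to 1 probe set by a factor of 1 over root 2, from 327 to 403 genes. These genes had both probe sets above the floor on both arrays. No p-value was computed, and the number of arrays limits the precision. Alternatives were quantile normalization, centring on 25 housekeeping genes, the mean of probe sets, no floor and a higher floor; choosing floor and probe sets without the array labelled endogenous PV was added after seeing the data. The difference count was tested on simulated data, with changes only in genes well above the floor and noise smaller than the technical spread. That check does not cover values near the floor or differences close to 2-fold. Named genes were all members, up to 6 genes of each of 4 lists with the largest range, the 5 nearest profiles of the 3 most variable members, and marker genes; Has1, Has3, Otx2, Ptprs and Hapln2 were named from the lists after their values were seen. Members and lists were chosen with earlier results of these data known. Computation used Python 3.11.15, numpy 2.4.6 and pandas 2.3.3.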

Additional observations from a re-analysis of the deposited data

How the results depend on the processing

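Of the 16 member differences of 2-fold or more, 16 stayed past 2-fold in the same direction under quantile normalization, the mean of probe sets, no floor, and a floor and probe set choice without the array labelled endogenous PV. After housekeeping centring 15 did, and 0 turned under any of the 6 alternatives. That centring subtracted 0.29 (day 3), 0.33 (day 7), 0.48 (day 14), 0.31 (sorted cells) and 0.26 (the array labelled endogenous PV, or the endogenous-labelled array) from log2 differences against MEF; it ended the Hapln4 call at day 14 (0.59) and added Tnc there (-1.03). A floor at the 75th percentile kept 10 of 16. With it the count of members differing was 1 at day 3, 1 at day 7 and 1 on the endogenous-labelled array, each relative to MEF and each time Tnc, and 1, Tnr, in sorted cells against the array labelled endogenous PV, where each main count was 2; fewer values lie above that floor. For the listed genes named with the members, 91 differences passed 2-fold, of which 88 did after quantile normalization, 85 after housekeeping centring, 73 with the higher floor and 91 under the other 3 alternatives. Over all genes, 317 to 1178 passed 2-fold in the 9 comparisons, with 560 to 1599 without a floor, 149 to 640 with the higher floor and 360 to 1247 after housekeeping centring. The share of these that were higher was 42.3% to 71.1%, and 14.7% to 84.6% after housekeeping centring, which put it at 20.0% for day 3, 26.0% for day 7, 14.7% for day 14 and 34.2% for the endogenous-labelled array against MEF, where it was 46.7%, 66.8%, 62.6% and 68.8%. No paired analysis was possible because each group had 1 array. Values near the floor limit what can be said of Hapln1, Hapln3, Acan, Bcan and Ncan.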
